A study of Homo sapiens with 4 samples.

Results

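Heat shock proteins and the molecular chaperones related to them were followed in nascent RNA of HCT116 cells, a human colorectal carcinoma line. The genes were chosen by symbol, as protein-coding genes of the HSP70 and HSP110, HSP90, small heat shock protein, DNAJ, BAG, CCT, prefoldin and mitochondrial chaperonin families, with the heat shock factors, 7 cochaperones of HSP70 and HSP90, SERPINH1 and HSPBAP1. The rule found 106 genes among 60656 gene IDs, and 95 of them had enough reads to be tested.

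The measurement was TTchem-seq, in which RNA made during a short pulse of 4-thiouridine is fragmented, purified and sequenced, so that a count reflects transcription under way rather than stored RNA. There were 4 libraries. The 2 DKO libraries came from cells whose TOP2A carries a mAID degron, which marks the protein for breakdown once auxin is added, and whose TOP2B is knocked out. The 2 WT libraries carry the genotype label wildtype, although the protocol names the TOP2A mAID line without the TOP2B knockout as the other line that was arrested. TOP2A and TOP2B are the type II topoisomerases, which pass 1 DNA duplex through another to relieve supercoils. Both groups were arrested in G1 by palbociclib, a CDK4 and CDK6 inhibitor (2 µM, 28 h), before a 30 min pulse of 4-thiouridine at 1 mM. Auxin, at 500 µM for 8 h, is recorded for the DKO cells only. Loss of the enzymes, auxin and differences between the cell lines or clones cannot be told apart. The question is how G1 transcription of chaperone genes compares when type II topoisomerases are absent or present.

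Chaperones bind unfolded stretches of proteins and help them to fold, to reach their compartment or to be destroyed. HSP70 proteins work in cycles of ATP hydrolysis, in which a DNAJ protein delivers the client and stimulates hydrolysis, and a nucleotide exchange factor such as a BAG or HSP110 protein resets the cycle. Clients can pass on to HSP90 or to the barrel-shaped chaperonins. Heat and other protein-damaging stresses release the factor HSF1, which binds heat shock elements, arrays of inverted GAA units, and switches on many of these genes. Unfolded protein in the endoplasmic reticulum instead activates ATF6 and XBP1, which act on a separate element. In unstressed tumour cells many chaperone genes are transcribed at a high level.

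The elements themselves were looked for in promoter windows of the RefSeq annotation (GRCh38.p14), each reaching from 250 bases before to 50 bases after the start of a gene, and 93 of the 106 genes had a window. A heat shock element, spelled as 3 units GAA, TTC and GAA or TTC, GAA and TTC with any 2 bases between units (each form is the reverse complement of its partner, so both strands are covered), was in 5 of these 93 windows (5.38%), against 133 of all 27305 windows (0.487%) and 55 of 15300 windows of protein-coding genes (0.359%). The 5 genes were HSPA6, HSPA8, DNAJA1, DNAJB6 and SERPINH1. The endoplasmic reticulum stress element, spelled CCAAT, any 9 bases and CCACG and searched on both strands, was in the windows of HSPA5 and HSP90B1, 2 of 93 (2.15%), against 22 of all windows (0.0806%). A match describes letters in a window and does not show binding. No heat shock element of this strict spelling was in the windows of HSPA1A, HSPA1B, DNAJB1, HSPH1 or HSP90AA1, which says only that these letters are not there. Each window covers a single start of its gene, and other starts were not searched. The DNAJB1 window is set on a start 31120 bases inside its RefSeq span. That of HSP90AA1 is set on the first base of a span of 59.0 kb. The stretches below are shown because their genes, apart from the unread HSPA6, are compared later, and because they let the matches be seen in place. They run 5′ to 3′ along the gene's strand, with the element in capitals, and the place given is that of the printed stretch.
HSPA6, plus strand, chr1:161524446-161524498: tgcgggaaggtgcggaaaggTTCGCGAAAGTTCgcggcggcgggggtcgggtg
SERPINH1, plus strand, chr11:75562157-75562209: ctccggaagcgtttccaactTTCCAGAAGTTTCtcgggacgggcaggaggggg
DNAJB6, plus strand, chr7:157336853-157336905: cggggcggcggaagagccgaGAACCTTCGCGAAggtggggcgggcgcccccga
HSP90B1, plus strand, chr12:103930196-103930254: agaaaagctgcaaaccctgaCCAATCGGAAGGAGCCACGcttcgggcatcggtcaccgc
HSP90B1, plus strand, chr12:103930301-103930359: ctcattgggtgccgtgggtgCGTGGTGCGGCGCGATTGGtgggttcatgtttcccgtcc
HSPA5, minus strand, chr9:125241371-125241429: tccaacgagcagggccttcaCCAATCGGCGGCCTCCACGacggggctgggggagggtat
The elements begin 74 bases before the start of HSPA6, 76 before SERPINH1, 131 before DNAJB6, 194 and 89 before HSP90B1 and 66 before HSPA5. HSPA8 has 2 matches, but its window is set on a start 326 bases inside its RefSeq span, so they are not shown, and 81 of the 93 windows are set on the first base of the span. The later element of HSP90B1 reads on the opposite strand.

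Each library held between 51142867 and 53777749 counted reads, and the chaperone genes took 0.664% to 0.702% of them. Counts of replicate libraries differed beyond sampling noise, at chi-square values per degree of freedom of 4.98 in DKO and 4.33 in WT. Whether replicates are separate cultures is not stated in the labels, so p-values measure only the spread between these libraries. RNA of the edited genes does not check the labels: levels in CPM (counts per 1000000 reads counted) were 147 and 150 against 140 and 143 in WT for TOP2B, and for TOP2A 165 and 168 against 126 and 122. The epithelial markers EPCAM, KRT8, KRT18, KRT19, CDH1 and CLDN4 were present, EPCAM at 69.2 to 72.9 CPM, whereas the intestinal markers VIL1, CDX1 and LGR5 had at most 11 counts in any library. CLDN3, of the epithelial list too, was low at 16 to 28 counts. The immune markers PTPRC, CD3E, CD68 and LYZ had at most 4 counts. Of endothelial markers VWF had 41 to 47 counts, PECAM1 15 to 18 and CDH5 at most 4, and of fibroblast markers COL1A1 had 158 to 192, PDGFRB 2 to 6, DCN at most 4 and COL1A2 0.

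Rises and falls were close to balanced. At an adjusted p under 0.05 (edgeR quasi-likelihood test, Benjamini-Hochberg over all 19103 tested genes), 18 of 95 tested chaperone genes were higher in DKO, 16 were lower and 61 were not called. That is 35.8% called, against 40.1% of all tested genes and 45.5% of 13083 tested protein-coding genes. By direction, 18.9% were higher and 16.8% lower, against 19.0% and 21.1% of all tested genes. The share called was thus no higher than the background. The median log2 fold change of the 95 genes, DKO minus WT, was 0.0, against -0.01 over all tested genes, and single values ran from -0.89 to 1.37. DKO and WT libraries were fully separated for 58 of 95 genes (61.1%), against 67.9% of all tested genes. With upper quartile scaling in place of TMM the split moved to 20 higher and 11 lower, as it did over all genes, from 3632 and 4025 to 4226 and 3328. Of the 34 called genes, 6 kept their call under every alternative tried. With no filter on low counts 23 lost it, with the Wald test of DESeq2 11. The number of calls fell to 4 higher and 3 lower without WT replicate 1 and to 9 and 5 without WT replicate 2. Among all genes 9.88% and 15.8% were still called in those runs.

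**Figure D1:**
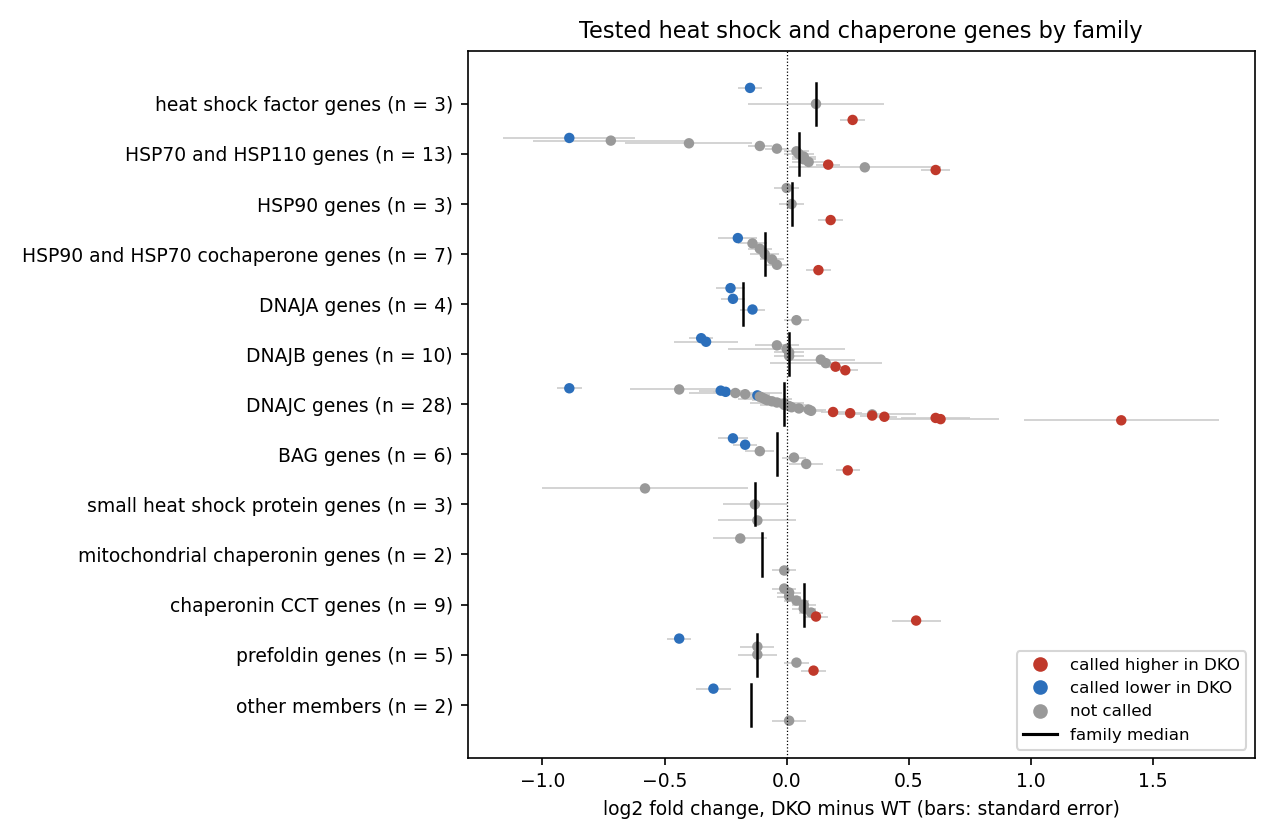
The log2 fold change (DKO minus WT) of each tested chaperone gene is plotted by family, 1 point per gene with a bar for its standard error and a vertical line at the family median, and called genes are coloured by direction. Most points lie close to 0 in every family, and the called genes fall on both sides in the HSP70 and HSP110, DNAJB, DNAJC, BAG, prefoldin, cochaperone and heat shock factor families.

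The other 11 genes could not be tested. HSPA6, the strictly heat-induced HSP70 gene, had 0 reads in every library, as had HSPB2, HSPB9, DNAJC25 and CCT8L2. For a gene at 0 reads, 3 counts, or 0.0558 to 0.0587 CPM, is the level that such a library still allows, counting error only. HSPA12B, on chromosome 20, had 0 and 4 counts in the DKO libraries against 8 and 7 in the WT libraries. HSPE1, which encodes the lid of the mitochondrial chaperonin, had 2 and 4 counts in the DKO libraries against 4 and 5 in the WT libraries, and RefSeq places it wholly inside the readthrough gene HSPE1-MOB4. DNAJC25 likewise lies wholly inside DNAJC25-GNG10, and HSPB2 inside CRYAB. DNAJB7, DNAJB8, HSPB3 and HSPB7 had 0 to 3 counts per library. How reads of overlapping genes were divided is not given in the sources used here, so the near absence of HSPE1 reads cannot be read as its level of transcription. In all, 46 of the 106 genes overlap another RefSeq gene. Among the 54 tested genes that do not, 9 were higher (16.7%) and 11 lower (20.4%), against 19.0% and 21.1% of all tested genes. Of the called genes, DNAJB1 (71.6% of its span), DNAJA4 (28.5%), DNAJC6 (20.6%), HSPA9 (20%) and BAG2 (16.2%) share the most of their span, and their values are uncertain to that extent. The same holds for genes that were not called, such as DNAJC2 (100%), FKBP4 (100%) and DNAJC9 (81.6%).

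Of the heat shock factor genes, HSF2 was called higher and HSF1 lower, but only the HSF2 call held under every alternative tried. HSF1, the main regulator of the heat shock response, stood at 56.5 and 54.7 CPM in DKO and 64.1 and 59.1 in WT. Both DKO libraries were below both WT libraries, with a log2 fold change of -0.15 ± 0.05 (SE, n = 2 per group; adjusted p = 0.0145). HSF2, which can form mixed trimers with HSF1 and acts in development, stood at 93.8 and 96.4 CPM in DKO and 79.2 and 78.5 in WT. The DKO libraries were the higher ones, with a log2 fold change of 0.27 ± 0.05 (adjusted p = 6.37e-07), a rise of 1.21-fold. HSF4, a factor of the lens, was barely transcribed, at 0.509 to 0.62 CPM, with overlapping groups (log2 fold change 0.12, adjusted p = 0.773). The call of HSF2 held with each library left out in turn (adjusted p of at most 0.0496). The call of HSF1 ended without WT replicate 1 (-0.09, adjusted p = 0.339), without WT replicate 2 (-0.21, 0.0678) and without DKO replicate 2 (-0.13, 0.0851). It also ended with upper quartile scaling (0.0718), the Wald test of DESeq2 (0.0892) and no count filter (0.171).

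Among 13 tested HSP70 and HSP110 genes, 2 rose (15.4%), 1 fell (7.69%) and the median log2 fold change was 0.05. Over all tested genes these shares were 19.0% and 21.1%. HSPA4L, an HSP110-type exchange factor, had the largest rise of a well-transcribed chaperone gene. It stood at 54 and 53 CPM in DKO against 34.4 and 35.7 in WT. The groups were far apart relative to their replicates, with a log2 fold change of 0.61 ± 0.06 (adjusted p = 1e-20), or 1.53-fold. HSPA4L lies on chromosome 4 from 127781796 to 127840733. Its relative HSPA4 stood at 183 and 186 against 173 and 179 CPM (log2 fold change 0.07, not called), and HSPH1, the heat-inducible HSP110 gene, stood at 85.7 and 74.2 against 79.9 and 76.1 CPM (0.04, adjusted p = 0.608). HSPA9, the HSP70 of mitochondria, rose from 173 and 168 CPM in WT to 191 and 193 in DKO (0.17 ± 0.05, adjusted p = 0.00128).

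HSPA8, the constitutive HSP70 of the cytosol and the gene of the family with the most reads, stood at 369 and 316 CPM in DKO and 358 and 348 in WT. The DKO libraries lay above and below both WT libraries. Its log2 fold change was -0.04 with a 95% interval of -0.14 to 0.05 (adjusted p = 0.515). HSPA5, the HSP70 of the endoplasmic reticulum known as BiP, also had DKO libraries on both sides of the WT pair, at 125 and 102 CPM in DKO and 107 and 111 in WT (0.07, adjusted p = 0.292). The calls of these genes turn on which DKO library is used. Without DKO replicate 1, HSPA8 was called lower (-0.16, adjusted p = 0.0112). Without DKO replicate 2, HSPA5 (0.20, adjusted p = 0.000424) and HSPH1 (0.14, 0.0398) were called higher. The call of HSPA4L held with each library left out, while that of HSPA9 ended without WT replicate 1 (0.0891) and WT replicate 2 (0.115).

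Few reads were counted for the stress-inducible pair HSPA1A and HSPA1B. HSPA1A had 23 and 14 counts in DKO against 25 and 34 in WT (log2 fold change -0.72 ± 0.32, adjusted p = 0.0574). HSPA1B had 21 and 28 counts in DKO against 56 and 32 in WT, and its call lower (-0.89 ± 0.27, adjusted p = 0.00499) rested largely on 1 WT library. Without WT replicate 1 its log2 fold change was -0.45 (adjusted p = 0.371), and the call also ended without DKO replicate 1 (-0.70, 0.0862), whereas HSPA1A was called lower in that run (-1.12, 0.0345). The genes are near-identical and how reads that match both were counted is not given in the sources used here, so neither their single values nor their sum can be read as a level of transcription. Summed, the pair had 44 and 42 counts in DKO against 81 and 66 in WT. The sum was lower in both DKO libraries and is given without a test.

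The genes of the HSP90 proteins were little different in the cytosol. HSP90AA1, the inducible form, stood at 132 and 117 CPM in DKO and 128 and 122 in WT, with a log2 fold change of 0.0 and a 95% interval of -0.10 to 0.09 (adjusted p = 0.968). HSP90AB1, the constitutive form, stood at 352 and 331 against 343 and 328 CPM (0.02, adjusted p = 0.747). In both cases the groups overlapped. HSP90B1, the form of the endoplasmic reticulum with the pair of stress elements printed above, stood higher at 173 and 163 CPM in DKO against 151 and 146 in WT (0.18 ± 0.05, adjusted p = 0.000927). That call ended without WT replicate 1 (0.112) and WT replicate 2 (0.146).

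Of 7 tested cochaperones of HSP70 and HSP90, 1 rose and 1 fell (14.3% each), with a median log2 fold change of -0.09. Over all tested genes 19.0% rose and 21.1% fell. FKBP5, a prolyl isomerase on HSP90 that restrains the glucocorticoid receptor, rose from 132 and 136 CPM in WT to 142 and 152 in DKO (0.13, adjusted p = 0.0159). HSPBP1, an HSP70 nucleotide exchange factor, fell from 18.4 and 16.4 to 14.9 and 15.3 CPM (-0.20, adjusted p = 0.023). The groups did not overlap in either case, but the differences are small. The FKBP5 call ended without DKO replicate 2 (0.08, adjusted p = 0.226), WT replicate 1 (0.314) or WT replicate 2 (0.171). The HSPBP1 call ended without DKO replicate 1 (0.104), WT replicate 1 (-0.12, 0.326) or WT replicate 2 (0.06) and with upper quartile scaling (0.0614). AHSA1, which activates the HSP90 ATPase (-0.14, 0.0565), and PTGES3, the p23 protein (-0.11, 0.055), came close to the threshold. Without DKO replicate 1, AHSA1 (-0.19, 0.0389) and PTGES3 (-0.14, 0.022) were called lower, and PTGES3 also with total counts (0.0435) or the replicate block (0.0277). FKBP4 (-0.09), STIP1, which links HSP70 to HSP90 (-0.06, 0.403), and ST13 (-0.04) were not called.

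The DNAJ genes, whose proteins choose the clients of HSP70, were split evenly. Over the 3 classes, 9 of 42 tested genes rose and 9 fell (21.4% each), with a median log2 fold change of 0.0. That is close to the 19.0% higher and 21.1% lower of all tested genes. The classes differed in their counts: 0 of 4 DNAJA genes rose and 3 fell (median -0.18), 2 of 10 DNAJB genes rose and 2 fell (0.01), and 7 of 28 DNAJC genes rose and 4 fell (-0.01). Whether the classes differ from each other was not tested.

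The DNAJA genes encode the general HSP40 proteins closest to bacterial DnaJ. DNAJA4 stood at 34.1 and 32.4 CPM in DKO and 40.5 and 37.5 in WT (-0.23, adjusted p = 0.00064). DNAJA3, which works in mitochondria, stood at 56.1 and 51.5 against 62.5 and 62.6 CPM (-0.22, 0.000235). DNAJA1, which carries a heat shock element 3 bases after its start, stood at 93.5 and 83.2 against 96.0 and 99.4 CPM (-0.14, 0.0103). In all 3 genes both DKO libraries lay below both WT libraries, although DNAJA1 came close to overlap. DNAJA2 overlapped between groups (75.4 and 67.9 against 68.6 and 70.4 CPM, 0.04). Without DKO replicate 2 the value of DNAJA1 was -0.06 (adjusted p = 0.379). DNAJA1 also lost its call without WT replicate 1 (0.248), WT replicate 2 (0.353) and with upper quartile scaling (0.0693), DNAJA3 without WT replicate 1 (0.127) and WT replicate 2 (0.1), and DNAJA4 without WT replicate 1 (-0.17, 0.156).

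Among DNAJB genes the heat-inducible DNAJB1 fell. DNAJB1, the main partner of inducible HSP70, stood at 44.7 and 41.0 CPM in DKO and 56.5 and 52.6 in WT. Both DKO libraries were lower by more than the gap between replicates (-0.35 ± 0.05, adjusted p = 1.14e-08), a fall of 1.27-fold. DNAJB1 overlaps TECR, so reads of the pair may be mixed. DNAJB2, an HSP40 abundant in neurons, was lower at 2.99 and 3.21 against 4.05 and 3.72 CPM (-0.33 ± 0.13, adjusted p = 0.0313). DNAJB14, of the endoplasmic reticulum membrane, rose from 149 and 156 to 180 and 179 CPM (0.24, adjusted p = 9.12e-06). DNAJB6, a suppressor of protein aggregation whose promoter holds a heat shock element, rose from 156 and 153 to 176 and 180 CPM (0.20, adjusted p = 0.000154).

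The endoplasmic reticulum genes DNAJB9 (-0.04), DNAJB11 (0.01) and DNAJB12 (0.01) were not called, nor were DNAJB4 (0.0), DNAJB5 (0.14) and DNAJB13 (0.16), all 3 at 3.15 CPM or less. DNAJB1 lost its call without WT replicate 1 (-0.30, adjusted p = 0.0791), as did DNAJB14 (0.0802). DNAJB6 lost it without WT replicate 1 (0.0778) or 2 (0.0776). DNAJB2 lost it without DKO replicate 1 (0.158), WT replicate 1 (0.236) or WT replicate 2 (0.101) and with upper quartile scaling (0.0574).

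The DNAJC class, whose proteins carry a J domain in varied settings, held both the largest fall and the clearest rises of the DNAJ genes. DNAJC5, the cysteine string protein of secretory vesicles, fell from 110 and 108 CPM in WT to 59.8 and 57.4 in DKO (-0.89 ± 0.05, adjusted p = 5.24e-42), or 1.86-fold. The gap between groups was many times the gap between replicates. DNAJC10, a disulfide reductase of the endoplasmic reticulum, rose from 93.8 and 90.6 to 121 and 123 CPM (0.40 ± 0.05, adjusted p = 4.8e-14). DNAJC15, which acts in protein import into mitochondria, rose from 73.3 and 73.4 to 93.0 and 94.4 CPM (0.35 ± 0.05, adjusted p = 1.08e-10). These 3 genes were called in the same direction under every alternative tried.

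DNAJC6, the auxilin that uncoats clathrin vesicles, stood at 76.7 and 83.1 CPM in DKO and 66.9 and 67.0 in WT (0.26, adjusted p = 5.41e-06). DNAJC3, an inhibitor of the kinase PERK in the endoplasmic reticulum, stood at 164 and 169 against 141 and 151 CPM (0.19, 0.000433). DNAJC12, a partner of aromatic amino acid hydroxylases, rested on lower values, 3.57 and 3.41 against 2.02 and 2.56 CPM (0.61 ± 0.14, 0.000138). All 3 were higher in both DKO libraries. DNAJC5B and DNAJC5G, relatives of DNAJC5, were called higher on few reads: 29 and 17 counts in DKO against 7 and 10 in WT for DNAJC5B (1.37 ± 0.40, 0.00286), and 59 and 50 against 35 and 33 for DNAJC5G (0.63 ± 0.24, 0.025). Without DKO replicate 1 neither was called (0.94, adjusted p = 0.2, and 0.51, 0.189), nor without WT replicate 1 (0.222 and 0.16) or 2 (0.107 and 0.164). DNAJC6 missed the threshold without WT replicate 1 (0.0957) or 2 (0.0697), DNAJC3 (0.161) and DNAJC12 (0.44, 0.105) without WT replicate 1.

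Falls in the class beyond DNAJC5 were smaller. DNAJC24, which serves the synthesis of diphthamide on elongation factor 2, stood at 78.7 and 76.8 CPM in DKO and 87.8 and 96.9 in WT (-0.25, adjusted p = 6.96e-06). DNAJC19, of the mitochondrial import motor, stood at 10.7 and 9.02 against 11.9 and 12 CPM (-0.27, 0.00658). DNAJC1, an endoplasmic reticulum J protein near ribosomes, stood at 194 and 203 against 213 and 219 CPM (-0.12, 0.0342). The groups did not overlap for these genes. DNAJC24 lost its call without WT replicate 2 (-0.18, 0.0863). DNAJC19 lost it without DKO replicate 2 (-0.16, 0.253), WT replicate 1 (0.215) or WT replicate 2 (0.197). DNAJC1 lost it without DKO replicate 1 (-0.08, 0.211), WT replicate 1 (0.186) or WT replicate 2 (0.288) and with upper quartile scaling (0.194). The other 17 tested DNAJC genes were not called, among them DNAJC2, the ribosome-associated partner of HSPA14 (-0.01), and DNAJC13, an endosomal J protein (0.10).

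**Figure D2:**
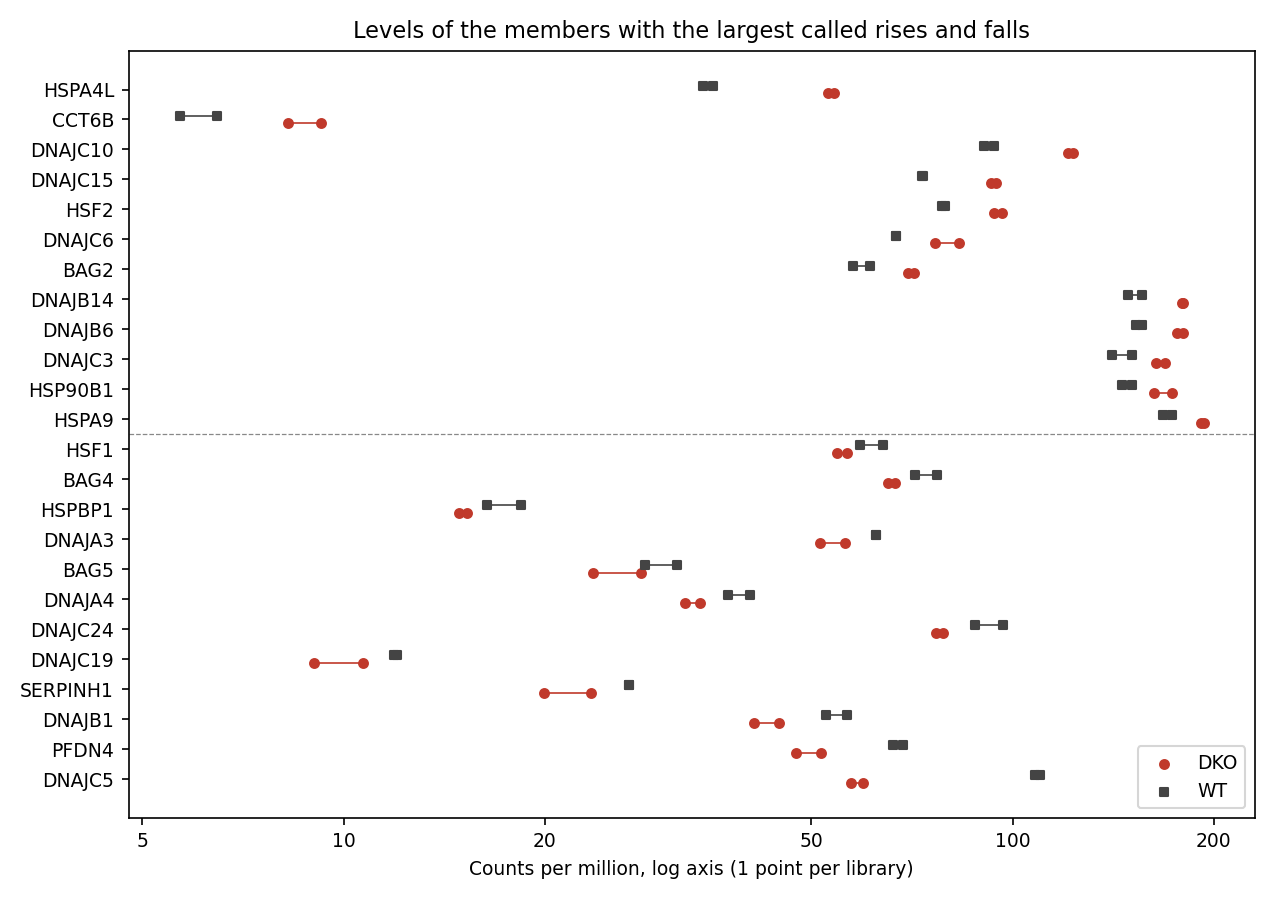
CPM (log axis) of the called chaperone genes with the largest rises and falls are plotted, 1 point per library and coloured by group. HSPA4L, DNAJC10 and DNAJC5 show groups that are far apart relative to their replicates, while the DKO points of BAG5 and SERPINH1 are spread.

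The BAG genes went both ways, with a median of -0.04. Of 6, 1 was higher (16.7%) and 2 were lower (33.3%), against 19.0% and 21.1% of all tested genes. BAG2, an inhibitor of the ubiquitin ligase CHIP, stood at 71.2 and 69.7 CPM in DKO and 57.7 and 61.2 in WT (0.25, adjusted p = 1.97e-05). BAG5 stood at 27.8 and 23.6 against 28.2 and 31.5 CPM (-0.22, 0.00383), and BAG4, which silences death receptors, at 66.7 and 65.2 against 71.6 and 77.0 (-0.17, 0.00286). BAG5 came close to overlap, and without DKO replicate 2 its value was -0.10 (0.31). BAG3, the heat-inducible member that leads clients to autophagy, overlapped between groups at 65.6 and 63.9 against 64.2 and 63.0 CPM (0.03, 0.719). BAG1 (-0.11) and BAG6, which guards tail-anchored proteins (0.08), were not called. Without WT replicate 1 the calls of BAG2 (0.20, 0.0866), BAG4 (0.0703) and BAG5 (0.164) ended, and without WT replicate 2 those of BAG4 (-0.12, 0.19) and BAG5 (-0.13, 0.436).

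None of the 3 tested small heat shock protein genes was called (median -0.13). HSPB1, the HSP27 gene, stood at 3.93 and 3.13 CPM in DKO and 3.59 and 4.13 in WT (-0.13, adjusted p = 0.445). HSPB8 stood at 2.07 and 1.86 against 2.2 and 2.08 CPM (-0.12) and HSPB6 at 0.188 in both DKO libraries against 0.289 and 0.274 CPM (-0.58 ± 0.42). The HSPB1 groups overlapped. The mitochondrial chaperonin gene HSPD1, which encodes the barrel for which HSPE1 is the lid, had a log2 fold change of -0.01 with a 95% interval of -0.11 to 0.08 at 319 and 288 against 312 and 300 CPM (adjusted p = 0.868). HSPE1-MOB4 was at -0.19 (0.145), and was called lower only without DKO replicate 1 (-0.33, 0.0344) among the runs with a library left out.

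The CCT genes, which encode the subunits of the cytosolic chaperonin that folds actin and tubulin, mostly lay close to 0. TCP1 (0.01), CCT2 (0.10), CCT3 (0.01), CCT4 (0.04), CCT5 (0.07), CCT7 (0.07) and CCT8 (-0.01) were not called. CCT6A stood at 186 and 173 CPM in DKO and 167 and 163 in WT (0.12, adjusted p = 0.0357). Of 9 tested genes with a median of 0.07, 2 (22.2%) were called higher and none lower, against 19.0% and 21.1% of all tested genes. The other called gene was CCT6B, a testis-enriched form of the CCT6A subunit, at 9.26 and 8.27 against 5.69 and 6.46 CPM (0.53 ± 0.10, adjusted p = 2.1e-06). CCT6A lost its call without DKO replicate 1 (0.06, 0.346), WT replicate 1 (0.247) or WT replicate 2 (0.36), and CCT6B without WT replicate 1 (0.0872). CCT6A and CCT6B resemble each other, and how reads that match both were counted is not given in the sources used here.

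Prefoldin hands unfolded actin and tubulin to CCT. Of its 5 tested genes, PFDN4 fell from 66.2 and 68.5 CPM in WT to 51.7 and 47.5 in DKO (-0.44 ± 0.05, adjusted p = 1.2e-13), and this call held under every alternative tried. PFDN2 was at the edge of the threshold, at 101 and 96.0 against 90.8 and 91.5 CPM (0.11, 0.0495). PFDN1 (0.04), PFDN5 (-0.12) and PFDN6 (-0.12) were not called. A further prefoldin gene, VBP1, falls outside the name rule and was not called (0.08, adjusted p = 0.245). Only PFDN4 had a call that held, and it lies on chromosome 20, where 79.4% of tested genes were lower. Whether the subunits of the complex differ from each other was not tested. The PFDN2 call ended without DKO replicate 1 (0.276), WT replicate 1 (0.292) or WT replicate 2 (0.236).

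SERPINH1, the collagen chaperone HSP47 of the endoplasmic reticulum, has a heat shock element in its promoter. It stood at 23.4 and 19.9 CPM in DKO and 26.7 and 26.7 in WT (-0.30 ± 0.07, adjusted p = 6.1e-05). The WT libraries were level with each other while the DKO libraries were apart, and the value was -0.43 without DKO replicate 1 and -0.19 without DKO replicate 2. Its call ended without WT replicate 1 (0.157) or WT replicate 2 (0.118). HSPBAP1, a partner of HSPB1, was at 0.01. Of the 4 tested genes with a heat shock element in the window, DNAJB6 rose, DNAJA1 and SERPINH1 fell and HSPA8 was not called.

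DNAJC5 and PFDN4 are the only tested chaperone genes on chromosome 20, and they are also the called genes with the largest falls at a mean of 4 CPM or more. DNAJC5 lies from 63895126 to 63936011 and PFDN4 from 54208087 to 54219961. Of all 428 tested genes of that chromosome, 340 (79.4%) were lower and 13 higher in DKO, with a median log2 fold change of -0.59. The part of this chromosome-wide difference in both falls was not tested. Away from chromosome 20, 18 of 93 chaperone genes were higher (19.4%) and 14 lower (15.1%), with a median of 0.01. Over all tested genes of any chromosome the shares were 19.0% and 21.1%.

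The compartments of the HSP70 system can be set side by side, with genes assigned to them after their values were seen. Of 11 tested genes assigned to the endoplasmic reticulum or its membrane, HSP90B1, DNAJC10, DNAJC3 and DNAJB14 rose, SERPINH1 and DNAJC1 fell, and HSPA5, HSPA13, DNAJB9, DNAJB11 and DNAJB12 were not called. Of 7 tested genes for mitochondrial proteins, HSPA9 and DNAJC15 rose, DNAJA3 and DNAJC19 fell, and HSPD1, DNAJC11 and DNAJC30 were not called. Each compartment held genes called in both directions, as did the tested genes as a whole. The shares were 36.4% higher and 18.2% lower for the endoplasmic reticulum and 28.6% each for mitochondria. Of all tested genes 19.0% were higher and 21.1% lower. The shares depend on which genes were assigned. DNAJC14 (-0.09), DNAJC16 (-0.11) and DNAJC18 (-0.04), for example, were not counted in the endoplasmic reticulum and were not called. Whether either compartment differs from that background was not tested.

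Genes of the same pathways outside the families were read from lists of known members, against 19.0% higher and 21.1% lower over all tested genes. Of 33 tested other chaperones and cochaperones, 3 rose (9.09%) and 9 fell (27.3%), with a median of -0.04. The falls were led by PDRG1 (-0.81) and TOMM34 (-0.43), both on chromosome 20, and STUB1, the CHIP ubiquitin ligase (-0.46). PIH1D1 (-0.42), TBCC, UNC45A, PPP5C, TRAP1 and TBCD also fell, while PPID (0.23) and BTF3 (0.18) rose. TTC4 rose on few reads, 26 and 21 counts in DKO against 13 and 12 in WT (0.85 ± 0.36, adjusted p = 0.0473). Of 12 tested heat-inducible genes 2 rose and 2 fell (16.7% each): SQSTM1, an autophagy receptor (0.23), and CLU, a secreted chaperone (0.25), rose, and RGS2 (-0.74, adjusted p = 1.83e-19) and GADD45B (-0.36) fell. The heat-inducible genes thus did not move one way.

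Of 21 tested genes of the unfolded protein response of the endoplasmic reticulum, 6 rose (28.6%) and 1 fell (4.76%), with a median log2 fold change of 0.01. SEL1L, which works in degradation of misfolded proteins, rose from 48.1 and 51.1 to 64.7 and 61.1 CPM (0.34, adjusted p = 7.36e-09). HERPUD1, of the same pathway, rose from 50.3 and 49.3 to 66.9 and 58.0 CPM (0.33, 4.68e-08). The stress sensors ATF6 (0.19) and ERN1 (0.13) and the disulfide isomerases PDIA6 (0.12) and PDIA4 (0.12) rose less, and CALR, a calcium-binding chaperone, fell (-0.15). Without WT replicate 1 none of the 21 was called and without WT replicate 2 only 1 was higher. Of 18 tested genes of mitochondrial protein quality control none rose, and PHB1 (-0.24) and TRAP1 (-0.13) fell (11.1%). Whether any list differs from the background was not tested.

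**Figure D3:**
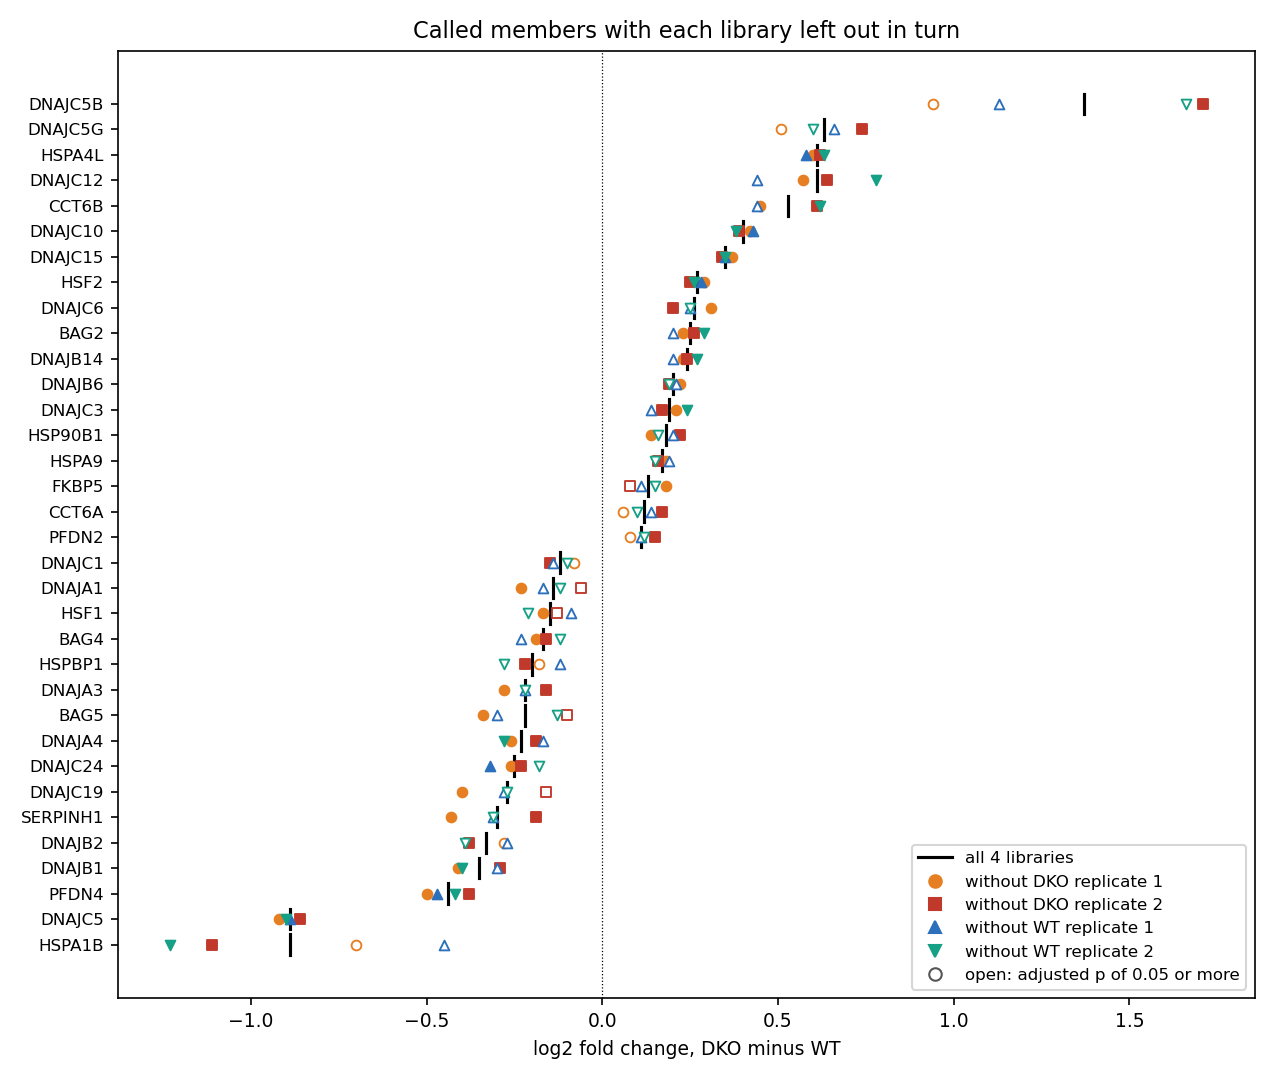
The log2 fold change (DKO minus WT) of the called chaperone genes is plotted for all 4 libraries and with each library left out in turn. The values of HSPA4L, DNAJC10, DNAJC15 and DNAJC5 hardly move, while HSPA1B, DNAJC5B and DNAJC12, which rest on few reads, move the most. Open symbols are values with an adjusted p of 0.05 or more.

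The DKO replicates differed from each other in a way that touches many of these genes. Among 77 chaperone genes whose mean log2 CPM was 2 or more, DKO replicate 1 was above DKO replicate 2 for 57 (74.0%), with a median difference of 0.07 in log2 CPM, against 51.2% of all such genes. In WT it was 38 of 77 (49.4%). For 15 classical heat shock and chaperone genes the median difference was 0.13 in DKO, from -0.04 to 0.29, and 0.04 in WT, from -0.05 to 0.12. Replicate 1 was the higher one for 12 of the 15 in DKO and for 14 of the 15 in WT, so for these genes the WT pair leaned the same way by smaller amounts. HSPA5 (0.29), SERPINH1 (0.23), HSPA8 (0.22), HSPH1 (0.21) and HSP90AA1 (0.18) differed the most of the 15 between DKO replicates. For these genes other than SERPINH1 that gap was larger than the difference between groups.

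**Figure D4:**
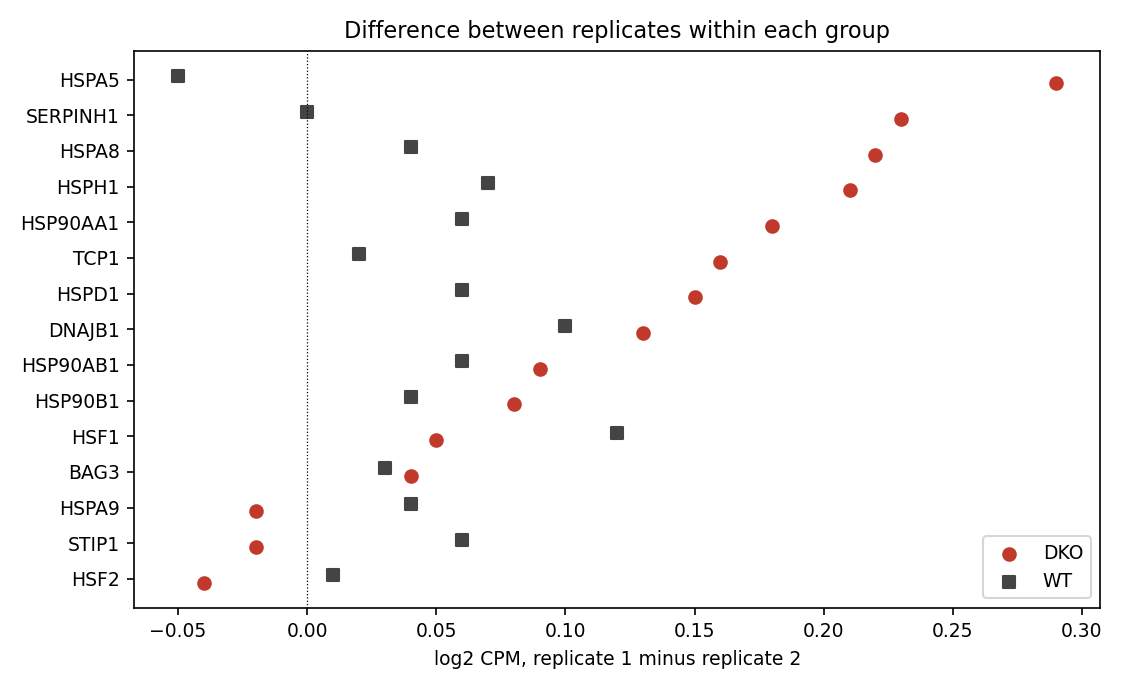
The difference between replicate 1 and replicate 2 in log2 CPM is plotted for 15 classical heat shock and chaperone genes, with 1 point per gene for DKO and 1 for WT. The DKO points reach from -0.04 to 0.29 and the WT points from -0.05 to 0.12.

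The difference between replicates went with the length of the gene in both groups. In DKO, for 23 well-transcribed chaperone genes of at most 15 kb, 21 were higher in DKO replicate 1, with a median difference of 0.15, against 72.9% and 0.06 for protein-coding genes of that length. For 11 genes over 60 kb it was 3, with a median of -0.02, against 23.7% and -0.05. In WT 13 of the 23 short genes were higher in replicate 1 (median 0.02) and 3 of the 11 long ones (-0.02), against 66.6% (0.04) and 33.6% (-0.02) of protein-coding genes of those lengths.

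The change between DKO and WT went with length as well. Of 35 tested chaperone genes of at most 15 kb in RefSeq span, 2 rose and 7 fell (median -0.11), and of 12 genes over 60 kb, 7 rose and 2 fell (median 0.16). Between them, 4 of 25 genes of 15 to 30 kb rose and 3 fell, and 5 of 23 of 30 to 60 kb rose and 4 fell. The 7 long genes that rose were DNAJC10, DNAJC15, DNAJB6, DNAJC3, DNAJC6, FKBP5 and the thinly covered DNAJC5B, and the 7 short ones that fell were SERPINH1, PFDN4, BAG5, DNAJA1, DNAJC19, DNAJB2 and HSPA1B. HSPA4L, at 58.9 kb, lay just under the longest bin. DNAJB1 (-0.35) was binned by its span of 45.6 kb, although its promoter window is set 31120 bases inside that span. Which starts were in use was not tested. Protein-coding genes as a whole had the same order, with 10.6% higher and 32.0% lower at 15 kb or less and 32.0% higher and 18.7% lower over 60 kb. Spearman's rho between span and log2 fold change, given as a description across genes, which are not independent replicates, was 0.37 over the 95 genes, 0.38 without chromosome 20, 0.29 over the 77 genes whose mean log2 CPM was 2 or more, and 0.25 over protein-coding genes.

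**Figure D5:**
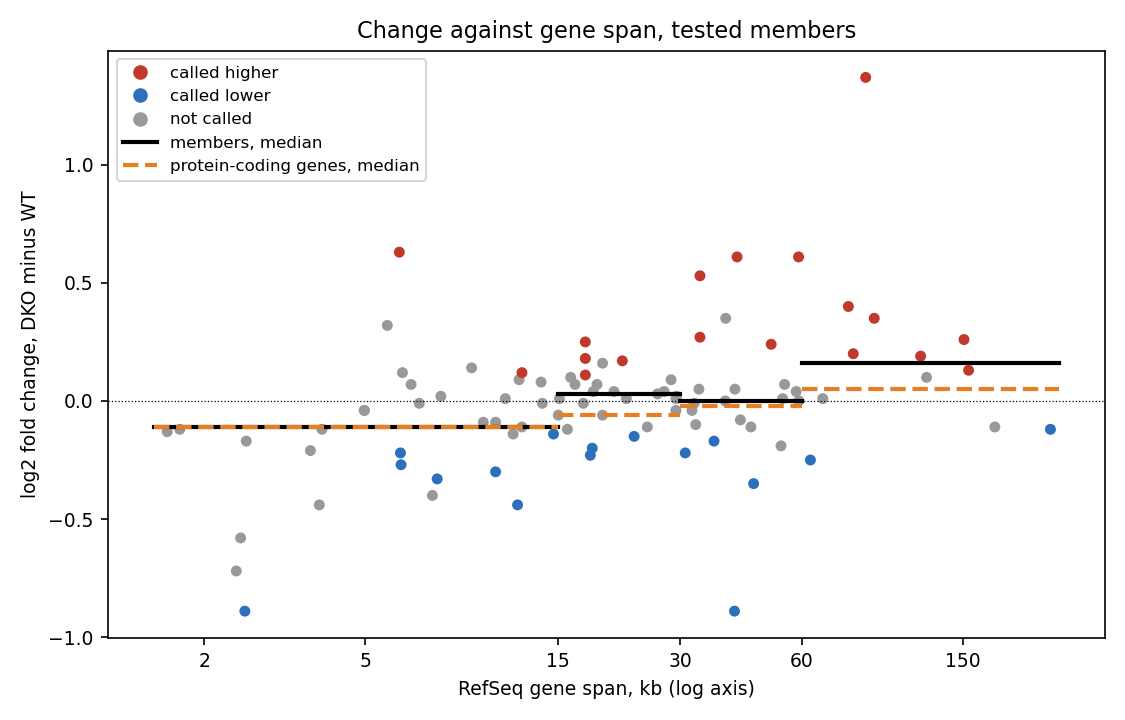
The log2 fold change (DKO minus WT) of each tested chaperone gene is plotted against its RefSeq span in kb on a log axis, with called genes coloured by direction and bars at the bin medians of chaperone genes (solid) and protein-coding genes (dashed). Genes over 60 kb lie mostly above 0 and genes of at most 15 kb mostly below, with medians of 0.16 and -0.11.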

How the data were processed

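Per the labels' protocols, 66 ng of labelled RNA per library entered a stranded kit and was sequenced as single reads of 75 bp. The authors deposited raw read counts per Ensembl gene. The submitters' processing notes name STAR 2.7.3a, featureCounts 1.6 and build hg38. Gene set version, strand setting, counted feature and the treatment of multiply mapped reads are, however, not given in the sources used here. Hence sense and antisense reads cannot be told apart. In a bulk measurement fewer cells of a type and less RNA per cell cannot be told apart. Values are relative to the counted total of each library, without a spike-in.

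Symbols were found for 42058 of 60656 IDs and RefSeq spans for 40250. 139 non-protein-coding symbols that match the name pattern were left out of the chaperone genes. The genes, lists and tests were chosen with earlier results of these data known. DKO was compared with WT in edgeR 4.0.16 (R 4.3.3) by its quasi-likelihood F-test over all genes, with no term beside group, with TMM factors and filterByExpr (minimum count 10, minimum total 15), and a call at a Benjamini-Hochberg adjusted p under 0.05. Standard errors are the log2 fold change over the root of F, and 95% intervals are 1.96 of them. The prior count was 2. The biological coefficient of variation was 3.46%.

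The test was checked on simulated counts for this comparison over 19103 genes. The same spread was set for every gene, and changes were placed only in genes above a minimum level. Differences in spread between genes and length-linked differences between replicates were not simulated. The values below therefore describe the simulation and do not measure error rates in the real libraries. Of 50 genes changed at each size, 66% were recovered at 1.25-fold, 94% at 1.5-fold, 94% at 2-fold and 100% at 3-fold, and 7 of 18903 unchanged genes were called.

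The genes named were 20 classical ones, the 12 largest rises and 12 largest falls among called genes whose mean log2 CPM was 2 or more and whose groups do not overlap, every tested gene of a family with up to 10 tested genes, those on chromosome 20 and the extremes of each family. Other named genes were chosen after their values were seen. Alternatives were DESeq2 size factors, total counts, upper quartile factors, no count filter, a filter of 50 reads in at least 2 libraries, DESeq2 1.42.0 (Wald test), limma 3.58.1 (voom), the replicate number as a block, and each library left out. Counts without chromosome 20 were added after seeing the data.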

Additional observations from a re-analysis of the deposited data

How the results depend on the processing

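Of the 34 called chaperone genes, HSPA4L, DNAJC10, DNAJC15, HSF2, DNAJC5 and PFDN4 kept call and direction under every alternative run. With no count filter 23 lost their call, with the Wald test of DESeq2 11, with upper quartile factors 5, with the replicate block none. The cause of these losses was not tested. Among 819 values of single genes under an alternative, 720 stayed on their side of the threshold, 88 lost a call and 11 gained one. None changed sign where the gene was called in either fit. Sign changes between uncalled values were not counted, such as HSPH1 at 0.04 with all libraries and -0.07 without DKO replicate 1. With no count filter 8 chaperone genes were higher and 3 lower, and with the Wald test 8 were lower. With the replicate block 19 were higher and 18 lower. Across 10036 genes the difference between DKO replicates 1 and 2 did not go with that between WT replicates 1 and 2 (r = -0.01). Well-transcribed protein-coding genes of at most 15 kb nevertheless leaned to replicate 1 in both groups (72.9% in DKO and 66.6% in WT). Those over 60 kb leaned to replicate 2 (23.7% and 33.6% higher in replicate 1). Whether libraries of the same number were handled together was not tested. With a library left out, 4 to 19 chaperone genes were higher and 3 to 18 lower, where a lone library is taken to vary as much as the other pair.

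Of other chaperones outside the families, 6 were higher with upper quartile factors and 1 with no filter, and 2 were lower with no filter and 4 with the Wald test. With a library left out 0 to 3 were higher and 2 to 10 lower. Of heat-inducible genes 0 were higher with no filter and 1 with the Wald test, and 0 to 2 were higher and 1 to 3 lower with a library left out. Of unfolded protein response genes 2 were higher with no filter. In that list 2 were lower with total counts and with the replicate block, and 0 with upper quartile factors, no filter or the Wald test. With a library left out 0 to 9 were higher and 0 to 4 lower. Of mitochondrial quality control genes 1 was higher with upper quartile factors, 1 was lower with upper quartile factors, no filter or the Wald test, and 0 to 2 were lower with a library left out.

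With a library left out the family medians ran from -0.108 to -0.04 for cochaperones, -0.135 to -0.03 for prefoldin, -0.094 to -0.009 for BAG, -0.247 to -0.111 for DNAJA, -0.299 to -0.049 for small heat shock protein, -0.209 to -0.003 for mitochondrial chaperonin, 0.024 to 0.113 for CCT and 0.029 to 0.214 for heat shock factor genes. Those of the HSP70 and HSP110 (-0.07 to 0.109), HSP90 (-0.021 to 0.083), DNAJB (-0.051 to 0.081) and DNAJC genes (-0.031 to 0.032) crossed 0. The mitochondrial chaperonin median rests on 2 tested genes, HSPD1 and the readthrough gene HSPE1-MOB4, which shares 71.5% of its span with MOB4. Depth limits genes under about 50 counts, such as HSPA1A, HSPA1B and DNAJC5B.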

Other observations

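Non-coding genes named for a chaperone gene were outside the rule, and their values are given without an explanation. DNAJC3-DT, named as a divergent transcript of DNAJC3, stood at 5.48 and 4.99 CPM in DKO and 3.61 and 4.64 in WT, with a log2 fold change of 0.35 ± 0.12 (edgeR adjusted p = 0.0111), in the direction of DNAJC3 itself. DNAJC9-AS1 stood at 5.24 and 4.56 CPM in DKO and 3.82 and 4.05 in WT (0.32 ± 0.12, adjusted p = 0.0232), while DNAJC9, which encodes a histone-binding J protein, was not called (-0.06). HSPA5-DT (0.11, adjusted p = 0.72) and DNAJC27-AS1 (-0.08, 0.503) were not called. These genes were chosen with their values in view, and no library was left out in turn for them.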
